A study of Mus musculus with 12 samples.

Results

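The genes described here are fibroblast growth factor (FGF) ligands and receptors, read in chondrocytes, the cells of cartilage. They are the receptors Fgfr1, Fgfr2, Fgfr3, Fgfr4 and Fgfrl1 and the ligands Fgf1, Fgf2, Fgf7, Fgf9 and Fgf18. They were taken by gene symbol from a deposited table of raw counts, as 10 of its 49315 genes, and all 10 were found. It holds bulk RNA-seq libraries of primary cells from the cartilage ends of bones (epiphyses) of 5-day-old mice. There were 3 samples of each of 4 genotypes: wild type (WT), Phlpp1-/- (Phlpp1 KO), Phlpp2-/- (Phlpp2 KO) and Phlpp1/2-/- (Phlpp1/2 KO). PHLPP1 and PHLPP2 are phosphatases that act on AKT, among other kinases. In every group the cells were freed with collagenase, frozen, thawed and kept in serum-containing medium overnight before lysis, and all samples carry the label female. The strain label was C57BL6 for WT, for Phlpp1 KO and for Phlpp2 KO 1 and 2, C57BL7 for Phlpp2 KO 3, and C57BL8, C57BL9 and C57BL10 for Phlpp1/2 KO 1, 2 and 3. The labels state neither which part of each gene was removed nor how many animals gave a sample, so p-values measure the spread between these samples, which may be technical.

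FGF ligands bind receptor tyrosine kinases together with heparan sulfate, and the bound receptors signal through adaptor proteins to RAS and the kinase ERK, to phosphoinositide 3-kinase and AKT, and to phospholipase C gamma. In the growth plate FGFR3 restrains chondrocyte proliferation, and activating mutations of it cause achondroplasia, the most common form of dwarfism. FGF18 and FGF9, made largely by cells around the cartilage, are ligands of FGFR3 there. FGF7 is typically made by mesenchymal cells and acts on a splice form of FGFR2 found in epithelia. FGF2 is an abundant ligand in cartilage matrix. FGFRL1 binds FGF but has no kinase domain.

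Library totals ran from 21706337 to 33115345 counts. Levels are given as counts per 1000000 (CPM), on library sizes scaled by trimmed mean of M values (TMM). Phlpp1 stood at 35.1 to 43.8 CPM in WT and at 8.77 to 9.46 and 7.71 to 8.83 CPM in Phlpp1 KO and Phlpp1/2 KO. Phlpp2 stood at 22.5 to 28.1 CPM in WT, at 16.8 to 19.4 in Phlpp2 KO (log2 fold change -0.52, adjusted p = 0.0607, edgeR's quasi-likelihood test, Benjamini-Hochberg adjustment) and at 10.2 to 11.4 in Phlpp1/2 KO. There were 2 libraries that went against the female label: Xist was at 13.9 CPM in Phlpp1 KO 1 and 3.77 in Phlpp1/2 KO 1, against 278 to 587 in the other 10, and Y-linked genes summed to 109 CPM in Phlpp1/2 KO 1 and to at most 1.23 elsewhere. Cartilage matrix genes, which define chondrocytes and include Col2a1 and Acan, were abundant, with a sum of 27523 to 51286 CPM (9 of 10 listed genes in the table). Sums of other marker lists were 1334 to 2195 CPM for perichondrium and fibroblasts (10 of 10 genes), 6.98 to 91.2 for skeletal muscle (10 of 10), 68.8 to 102 for endothelium (6 of 6), 123 to 157 for macrophages and osteoclasts (9 of 9), 11.3 to 26.2 for osteoblasts (6 of 6) and 13.3 to 17.1 for keratinocytes (7 of 7). No gene of these lists was at 0 in all libraries.

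Receptor transcripts dominated the set. Per kilobase of exon (the union of annotated exons), Fgfrl1 was the most abundant member at 59.4 CPM per kilobase, as the mean of 12 libraries. Fgfr1 followed at 39.8, Fgfr3 at 28.2, Fgf7 at 16.7, Fgfr2 at 13.6 and Fgf2 at 10.5 CPM per kilobase. Well below them came Fgfr4 at 1.73, Fgf18 at 0.966, Fgf1 at 0.355 and Fgf9 at 0.0141 CPM per kilobase. Each member stood above the next in the order in 10 to 12 libraries, except that Fgf7 stood above Fgfr2 in only 7. The choice of length matters for this order. With the longest annotated transcript, Fgfr1 (78.0 CPM per kilobase) led Fgfrl1 (70.9) in 8 of 12 libraries, and Fgfr2 (31.7) stood above Fgf7 (20.3) in 10.

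**Figure D1:**
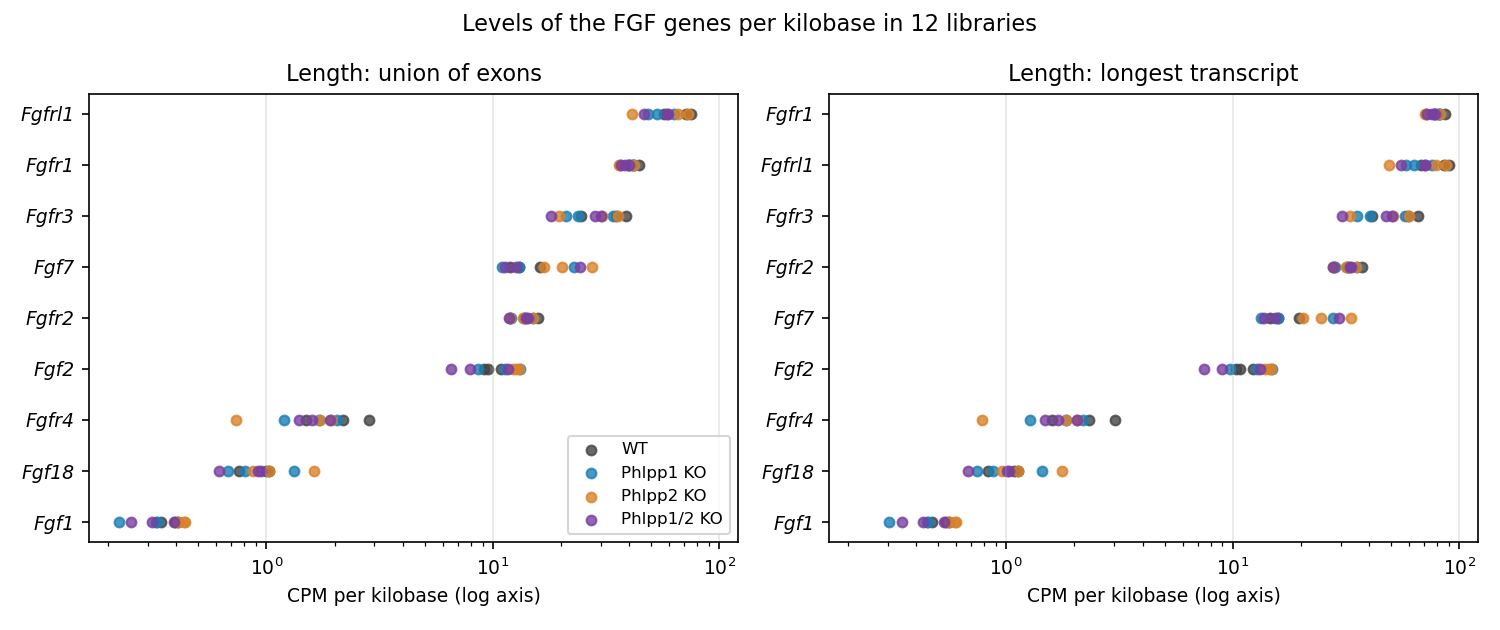
Level of each member except Fgf9 in CPM per kilobase (log axis) in each of the 12 libraries, coloured by genotype, with the union of exons as length on the left and the longest transcript on the right. On the left, Fgfrl1, Fgfr1 and Fgfr3 lie above 18 CPM per kilobase in every library, and Fgf18 and Fgf1 lie at or below 1.62.

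Among the kinase receptors, the per-kilobase level of Fgfr1 was the largest share of the sum of Fgfr1 to Fgfr4, at 43.5% to 54.5% across libraries. Fgfr3 made up 26.5% to 38.4%, Fgfr2 14.8% to 19.4% and Fgfr4 1.05% to 3.11% of that sum. Fgfr1 thus exceeded Fgfr3 per kilobase in every library, by a ratio of 1.14 to 2.04, and with the longest transcript by 1.32 to 2.37. On the exon union this ratio ran from 1.14 to 1.70 in WT, 1.16 to 1.96 in Phlpp1 KO, 1.17 to 1.85 in Phlpp2 KO and 1.28 to 2.04 in Phlpp1/2 KO, so that the genotypes overlapped. The share of Fgfr2 did not overlap between WT (15.0% to 15.7%) and Phlpp1 KO (16.0% to 17.0%) or Phlpp1/2 KO (16.8% to 17.4%). Phlpp2 KO (14.8% to 19.4%) covered all of them. With the longest transcript it did not overlap either, but Phlpp1 KO (19.39% to 20.6%) lay only just above WT (18.3% to 19.35%). The CPM of Fgfr2 itself overlapped between all groups. No test was run on these shares, which move with the level of every receptor in the sum.

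Promoter windows are shown for 3 members because Fgfr3 and Fgfrl1 rose and fell together among the libraries while Fgf7 went the other way, as described further on. Each window is 300 bases, from 250 before to 50 after a transcription start, from RefSeq on GRCm38.p6, the assembly of mm10. RefSeq windows were matched to 8 of the 10 members. Capitals mark GC boxes (GGGCGG on either strand), a motif that binds SP family factors.
Fgfr3 (first of its 2 windows, chr5:33721474-33721773, plus strand): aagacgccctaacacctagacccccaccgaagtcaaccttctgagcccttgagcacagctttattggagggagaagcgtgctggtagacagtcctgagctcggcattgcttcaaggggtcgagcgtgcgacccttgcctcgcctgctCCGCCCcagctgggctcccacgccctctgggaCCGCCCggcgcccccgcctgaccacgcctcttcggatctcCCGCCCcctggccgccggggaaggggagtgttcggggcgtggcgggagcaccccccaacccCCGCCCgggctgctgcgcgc
Fgfrl1 (chr5:108693979-108694278, plus strand): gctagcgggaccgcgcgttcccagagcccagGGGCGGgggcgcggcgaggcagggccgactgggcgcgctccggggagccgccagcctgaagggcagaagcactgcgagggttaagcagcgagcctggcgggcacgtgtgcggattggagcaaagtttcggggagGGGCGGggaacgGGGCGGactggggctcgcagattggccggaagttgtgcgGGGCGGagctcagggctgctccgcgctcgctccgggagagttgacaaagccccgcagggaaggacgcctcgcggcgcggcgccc
Fgf7 (chr2:126034408-126034707, plus strand): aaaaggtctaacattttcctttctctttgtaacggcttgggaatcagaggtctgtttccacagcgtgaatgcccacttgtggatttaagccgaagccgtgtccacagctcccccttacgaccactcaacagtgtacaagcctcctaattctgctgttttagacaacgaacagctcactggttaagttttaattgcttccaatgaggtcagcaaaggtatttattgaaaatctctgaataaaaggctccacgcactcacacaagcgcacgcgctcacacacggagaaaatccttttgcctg
The Fgfr3 and Fgfrl1 windows each held 4 GC boxes, and the Fgf7 window held none. The Fgfr4 window also held 4 GC boxes. The Fgfr2 window held 0, with 4 CpG dinucleotides and a GC content of 43.67%. Fgfr2 moved with Fgfr3 too, with a Pearson correlation of 0.73 after each genotype's mean was taken off. The second Fgfr3 window held 2 GC boxes, and the windows of Fgf2 and Fgf18, which moved with Fgf7, had 1 each, with 24 and 47 CpG dinucleotides and a GC content of 62.67% and 78.67%. Of all 32851 RefSeq windows of this length, 35.66% held at least 1 GC box. The Fgfr3 and Fgfrl1 windows had 26 and 37 CpG dinucleotides and a GC content of 69.67% and 73.67%. The Fgf7 window had 11 CpG and 45.67%, and the medians over these 32851 windows were 7 CpG and 52.67%. The core letters bound by SOX factors (ACAAAG or ACAATG on either strand), which include the chondrocyte factor SOX9, occurred once each in the Fgfrl1 and Fgf7 windows, sharing no base with a GC box. They occurred in 28.6% of the 32851 windows. These matches are letters in a window, not sites shown to be bound.

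Of the 10 members, 9 passed the filter for low counts and were tested for genotype, with Fgf9 left out. None had an adjusted p under 0.05 (edgeR) in any of the 6 pairs of genotypes, in the interaction of both losses or in the test of any difference among the 4 genotypes. The interaction compares the log2 change in Phlpp1/2 KO with the sum of the changes in the single knockouts. For Phlpp1 KO, Phlpp2 KO and Phlpp1/2 KO against WT, 0 of 9 members were called at an adjusted p under 0.05 with edgeR's quasi-likelihood test, where 0.537%, 0.121% and 0.235% of all 16565 tested genes were called. The lowest adjusted p of a member was 0.312, 0.395 and 0.509 in these comparisons, edgeR with Benjamini-Hochberg adjustment. The counts were also 0 of 9 for Phlpp1/2 KO against Phlpp1 KO (0.0121% of all genes called), Phlpp1/2 KO against Phlpp2 KO (0.0724%), Phlpp1 KO against Phlpp2 KO (0.151%), the interaction (0.0483%) and any difference (0.362%). Without adjustment, 0 members had p under 0.05 in the comparisons against WT, against 3375, 2281 and 1836 of all tested genes. Elsewhere the members with an unadjusted p under 0.05 were Fgf1 and Fgf2 for Phlpp1/2 KO against Phlpp2 KO, Fgf1 for Phlpp1 KO against Phlpp2 KO and Fgf2 for the interaction. DESeq2 and limma-voom also called 0 members in all 8 comparisons. Few genes of any kind were called, so the members' counts of 0 are near the background.

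A looser measure is whether the 3 libraries of each group overlap. Against WT, 0 members were higher and 1 lower without overlap in Phlpp1 KO, where 14.9% and 13.3% of all tested genes were. In Phlpp2 KO 2 were higher and 0 lower (10.3% and 8.87% of all genes), and in Phlpp1/2 KO 0 were higher and 1 lower (8.57% and 10.3%). Phlpp1/2 KO had 0 and 0 against Phlpp1 KO (7.2% and 6.02%) and 0 and 2 against Phlpp2 KO (7.52% and 4.9%), and Phlpp1 KO had 0 and 1 against Phlpp2 KO (7.35% and 6.77%). With 9 members tested, most of these counts are near the background.

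**Figure D2:**
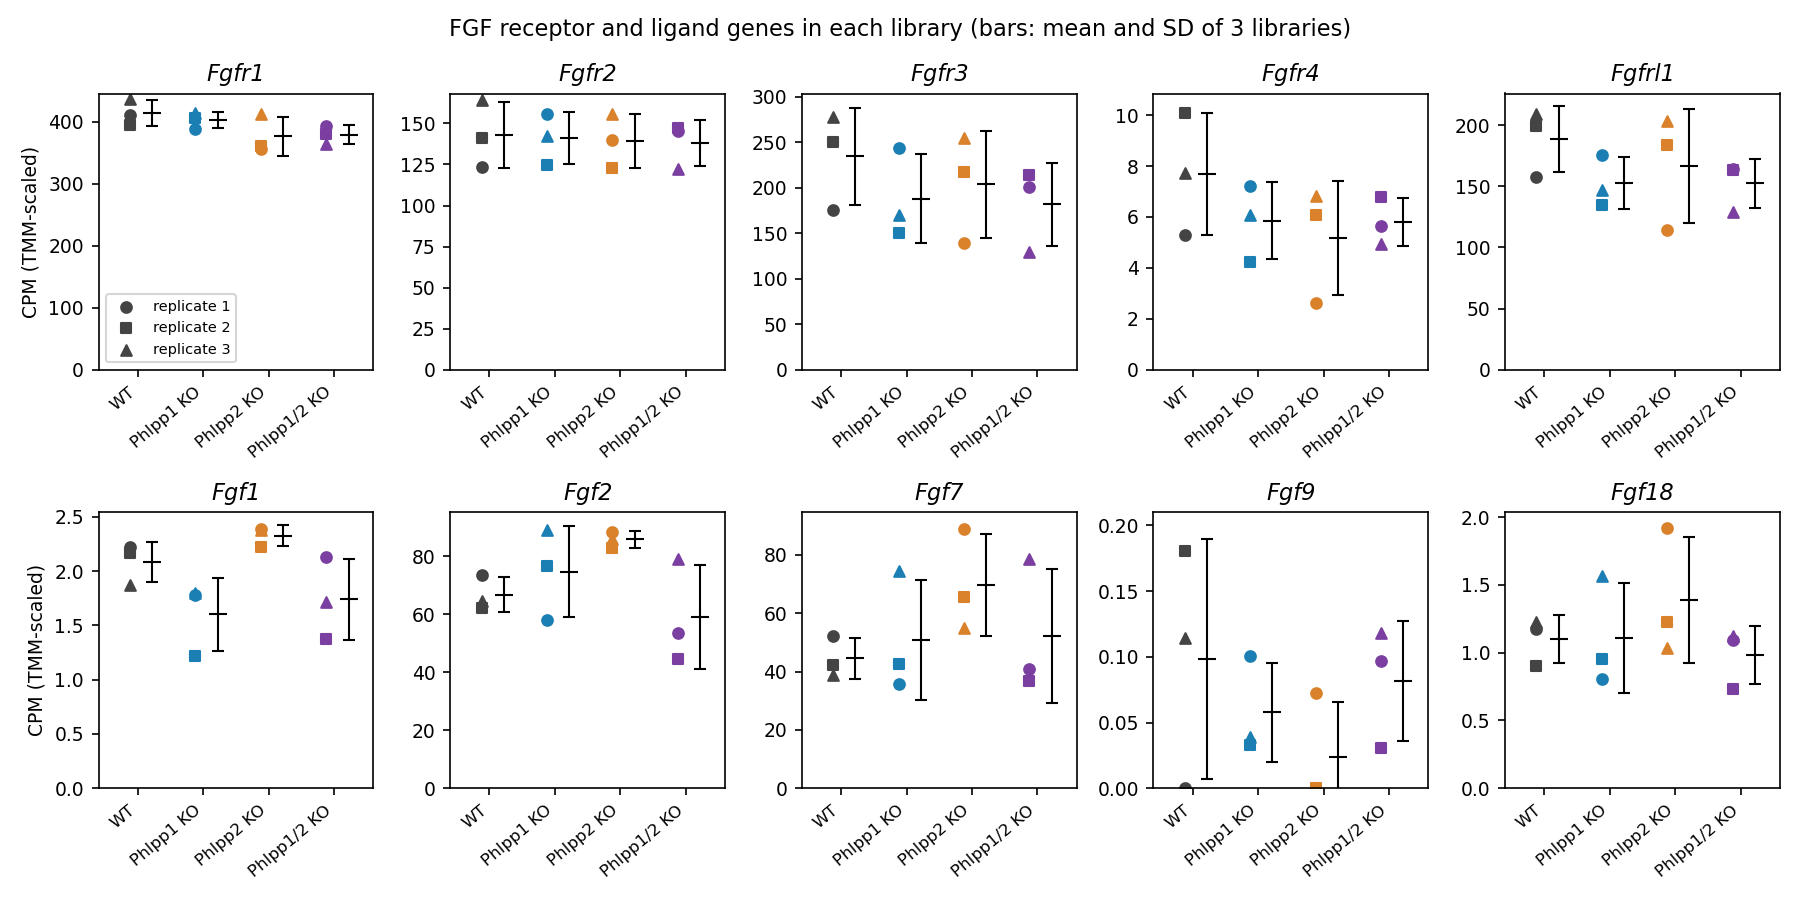
CPM of each of the 10 FGF ligands and receptors in the 3 libraries of each genotype, with the group mean and SD as bars (linear axes from 0). The 4 genotypes overlap for most members, and the libraries of 1 genotype spread widely for Fgfr3 (139.8 to 255 CPM in Phlpp2 KO) and narrowly for Fgfr1 (389 to 414 CPM in Phlpp1 KO).

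Fgfr1 (ENSMUSG00000031565, chr8:25513654-25575718, mm10, plus strand), the receptor known from perichondrium and from hypertrophic chondrocytes, was the steadiest member. The WT libraries had 411, 394 and 436 CPM, and the Phlpp1 KO libraries 389, 406 and 414 CPM. In Phlpp2 KO it was 356, 361 and 413 CPM, and in Phlpp1/2 KO 394, 380.2 and 364 CPM. All 3 Phlpp1/2 KO libraries lay below the WT libraries, the highest of them by less than 1 CPM, and the other knockouts overlapped with WT. No other member was lower in Phlpp1/2 KO without overlap. The log2 difference from WT was -0.13 in Phlpp1/2 KO (95% interval -0.27 to 0.02, adjusted p = 0.509, edgeR) and -0.14 in Phlpp2 KO (-0.28 to 0.01, adjusted p = 0.395, edgeR). In Phlpp1 KO it was -0.04 (-0.18 to 0.10). Fgfr1 was thus the member on which these samples set the tightest limits, with a biological coefficient of variation (BCV) of 0.0725, higher than in only 25.6% of tested genes.

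Fgfr2 (ENSMUSG00000030849, chr7:130162451-133123350, minus strand), which marks the condensing mesenchyme of early cartilage and bone-forming cells, was at 124, 141 and 164 CPM in WT and at 156, 125 and 143 CPM in Phlpp1 KO. It was at 139.7, 123 and 156 CPM in Phlpp2 KO and at 145, 147 and 122 CPM in Phlpp1/2 KO. All groups covered nearly the same range. The log2 differences from WT were -0.02, -0.04 and -0.05, with the widest interval from -0.31 to 0.21, for Phlpp1/2 KO. Their sign turned with a single library left out: without WT 3 they were 0.09, 0.07 and 0.06. Its exons share 314 bases with Ctbp2 on the same strand, where reads may have been counted for either gene or for none.

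Fgfr3 (ENSMUSG00000054252, chr5:33721674-33737068, plus strand), the growth-restraining receptor of the growth plate, varied more among libraries than between genotypes. It was at 175, 251 and 278 CPM in WT 1, 2 and 3 (mean 235 ± 53.3 SD, n = 3). Phlpp1 KO had 244, 150.1 and 171 CPM (mean 188 ± 49.2 SD). Phlpp2 KO had 139.8, 217 and 255 CPM (mean 204 ± 58.7 SD), and Phlpp1/2 KO had 201, 215 and 129 CPM (mean 182 ± 46.0 SD). Each knockout had a lower mean than WT, and each overlapped with it. The log2 difference was -0.32 in Phlpp1 KO (95% interval -0.94 to 0.30), -0.20 in Phlpp2 KO (-0.82 to 0.41) and -0.37 in Phlpp1/2 KO (-0.99 to 0.25), so that a fall to 0.505-fold and a rise to 1.33-fold both lay within the intervals. Adjusted p-values were 0.565, 0.798 and 0.667 (edgeR). Without Phlpp2 KO 1 the difference in Phlpp2 KO was 0.01. The BCV of Fgfr3, 0.237, was above that of 92.7% of tested genes. A sequence annotated on the opposite strand, G630022F23Rik, shares 998 exon bases with Fgfr3 and had 625 counts in the 12 libraries against 68998 for Fgfr3, and the strand setting of the counting is not given in the sources used here.

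Fgfrl1 (ENSMUSG00000008090, chr5:108692382-108706924, plus strand), the receptor without a kinase, followed Fgfr3. It was at 158, 199 and 209 CPM in WT and at 176, 135 and 147 CPM in Phlpp1 KO. It was at 114, 183 and 203 CPM in Phlpp2 KO and at 164, 164 and 129 CPM in Phlpp1/2 KO. As for Fgfr3, the means of the knockouts were lower (153, 167 and 152 CPM, against 189 in WT) and all groups overlapped with WT. The log2 differences were -0.31 (SE 0.20), -0.18 (SE 0.20) and -0.31 (SE 0.20), with adjusted p-values of 0.422, 0.745 and 0.606 (edgeR). In Phlpp2 KO it was 0.03 without Phlpp2 KO 1.

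Fgfr4 (ENSMUSG00000005320, chr13:55152640-55168759, plus strand), a receptor known mainly from liver and regenerating muscle, was scarce, with 72 to 280 counts per library. It was at 5.30, 10.1 and 7.72 CPM in WT, at 7.24, 4.24 and 6.07 CPM in Phlpp1 KO, at 2.60, 6.09 and 6.82 CPM in Phlpp2 KO and at 5.64, 6.79 and 4.93 CPM in Phlpp1/2 KO. The lowest and the highest library were Phlpp2 KO 1 and WT 2, a ratio of 3.87, and all groups overlapped. The log2 differences from WT were -0.41 (SE 0.33), -0.58 (SE 0.33) and -0.42 (SE 0.33), and none was called (adjusted p at least 0.478, edgeR). WT 2, the highest library, also had the highest sum of skeletal muscle genes, 91.2 CPM against 6.98 to 43.8 in the others. Over the 12 libraries, the Pearson correlation of Fgfr4 with this sum was 0.23. It was -0.07 after each genotype's mean was taken off. The part of muscle RNA in the WT 2 value was not tested.

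Fgf2 (ENSMUSG00000037225, chr3:37348346-37410108, plus strand), a ligand of FGFR1 and other receptors, was highest in Phlpp2 KO and lowest in Phlpp1/2 KO. It was at 73.6, 62.0 and 64.6 CPM in WT (mean 66.7 ± 6.07 SD, n = 3) and at 58.1, 76.7 and 89.1 CPM in Phlpp1 KO (mean 74.7 ± 15.6 SD). Phlpp2 KO had 88.3, 82.8 and 85.9 CPM (mean 85.7 ± 2.77 SD), whereas Phlpp1/2 KO had 53.6, 44.4 and 78.9 CPM (mean 59.0 ± 17.9 SD). All Phlpp2 KO libraries were above all WT and all Phlpp1/2 KO libraries. The log2 difference of Phlpp2 KO from WT was 0.36 (SE 0.20, 95% interval -0.07 to 0.79, adjusted p = 0.452, edgeR), and that of Phlpp1/2 KO from Phlpp2 KO was -0.54 (SE 0.20, -0.97 to -0.11, adjusted p = 0.516, edgeR).

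The interaction term of Fgf2 was -0.70 on the log2 scale (SE 0.28, 95% interval -1.31 to -0.09, adjusted p = 0.264, edgeR): both single knockouts had higher means than WT and Phlpp1/2 KO a lower one. This value depends on Phlpp1/2 KO 3, which had 78.9 CPM where the other 2 libraries of the group had 53.6 and 44.4. Without it the interaction was -0.99 (adjusted p = 0.0176, edgeR) and the difference between Phlpp1/2 KO and Phlpp2 KO was -0.81 (adjusted p = 0.0497, edgeR), and both were called. No other member passed the threshold in any comparison under the alternatives run. Over all alternatives the interaction of Fgf2 ran from -0.99 to -0.53 and its adjusted p from 0.0176 to 0.598 (edgeR, DESeq2 and limma-voom). Phlpp1/2 KO 3 also had the lowest cartilage matrix sum of all libraries, 27523 CPM, and the part of this difference in the value was not tested. Nudt6, on the opposite strand, shares 640 exon bases with Fgf2 and had 1153 counts against 24345 for Fgf2, and without a known strand setting reads from both cannot be told apart there.

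Fgf7 (ENSMUSG00000027208, chr2:126034658-126091185, plus strand), also called keratinocyte growth factor, spread more widely among libraries than Fgf2. It was at 52.3, 42.2 and 38.8 CPM in WT and at 35.6, 42.5 and 74.3 CPM in Phlpp1 KO. It was at 88.7, 65.6 and 54.7 CPM in Phlpp2 KO and at 41.0, 36.9 and 78.7 CPM in Phlpp1/2 KO. Phlpp2 KO was the only group that did not overlap with WT, and there all 3 libraries were higher. Fgf2 was the other member for which this held. The log2 difference in Phlpp2 KO was 0.65 (SE 0.34, 95% interval -0.12 to 1.42, adjusted p = 0.445, edgeR). In Phlpp1 KO it was 0.19 and in Phlpp1/2 KO 0.23, each resting on 1 library: without Phlpp1 KO 3 and without Phlpp1/2 KO 3 these values were -0.18 and -0.18. The BCV of Fgf7, 0.287, was above that of 96.2% of tested genes.

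Fgf18 (ENSMUSG00000057967, chr11:33117430-33147400, minus strand), a ligand of FGFR3 in the growth plate, had only 24 to 53 counts per library. It was at 1.18, 0.901 and 1.22 CPM in WT, at 0.808, 0.953 and 1.57 CPM in Phlpp1 KO, at 1.92, 1.22 and 1.04 CPM in Phlpp2 KO and at 1.1, 0.734 and 1.12 CPM in Phlpp1/2 KO. All groups overlapped. The log2 differences from WT were 0.00 (SE 0.32), 0.34 (SE 0.30) and -0.16 (SE 0.31), with 95% intervals that reached from 0.565-fold, for Phlpp1/2 KO, to 2.00-fold, for Phlpp2 KO.

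Fgf1 (ENSMUSG00000036585, chr18:38838673-38929472, minus strand), a ligand that binds all FGF receptors, had 37 to 67 counts per library. It was at 2.22, 2.16 and 1.87 CPM in WT, at 1.78, 1.22 and 1.80 CPM in Phlpp1 KO, at 2.39, 2.22 and 2.38 CPM in Phlpp2 KO and at 2.13, 1.38 and 1.71 CPM in Phlpp1/2 KO. Fgf1 was the member that was lower without overlap in Phlpp1 KO, both against WT and against Phlpp2 KO. For Phlpp1/2 KO against Phlpp2 KO, the members lower without overlap were Fgf1 and Fgf2. The log2 difference of Fgf1 was -0.38 for Phlpp1 KO against WT (SE 0.20, adjusted p = 0.312), -0.54 for Phlpp1 KO against Phlpp2 KO (SE 0.20, adjusted p = 0.359) and -0.42 for Phlpp1/2 KO against Phlpp2 KO (SE 0.19, adjusted p = 0.565), all by edgeR.

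Fgf9 (ENSMUSG00000021974, chr14:58070547-58112720, plus strand), a ligand of FGFR3 in the early skeleton, was close to absent from these libraries. Its counts were 0, 5 and 3 in WT, 3, 1 and 1 in Phlpp1 KO, 2, 0 and 0 in Phlpp2 KO and 3, 1 and 4 in Phlpp1/2 KO, 23 in all. A count of 0 allows up to 0.138 CPM in WT 1 and 0.0989 and 0.113 CPM in Phlpp2 KO 2 and 3, from counting error alone (3 counts of the library total). No difference between genotypes could be read at this depth.

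**Figure D3:**
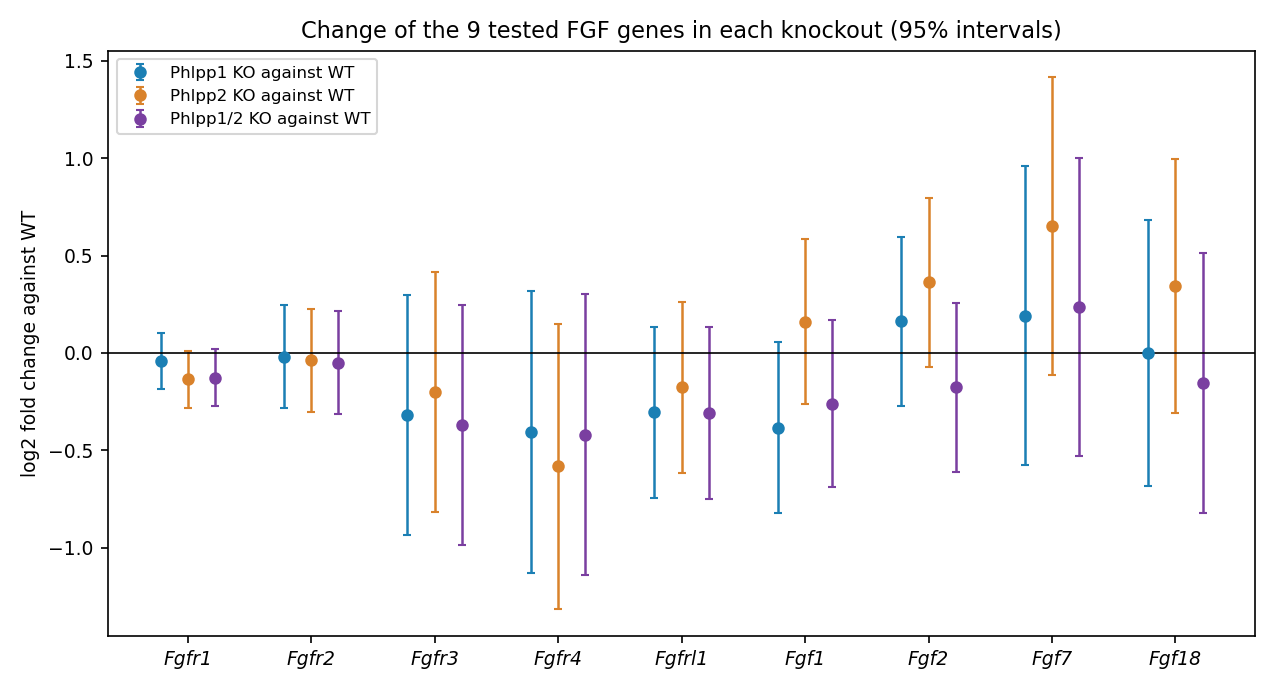
Log2 fold change of the 9 tested members in each knockout against WT, with 95% intervals from edgeR. The intervals are narrowest for Fgfr1 (-0.18 to 0.10 in Phlpp1 KO) and among the widest for Fgf7 (-0.12 to 1.42 in Phlpp2 KO), and all of them include 0.

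The 3 comparisons against WT share the WT libraries, so their directions are not independent. Of the 9 tested members, 3 were higher and 6 lower in Phlpp1 KO, with a median log2 difference of -0.04. In Phlpp2 KO 4 were higher and 5 lower (median -0.04), and in Phlpp1/2 KO 1 was higher and 8 lower (median -0.18). Over all tested genes the medians were -0.01, -0.02 and -0.00. The 5 receptors had negative values in all 3 comparisons, though those of Fgfr1, Fgfr2, Fgfr3 and Fgfrl1 turned positive in at least 1 comparison when libraries were left out.

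Within genotypes the members moved in a common pattern. In each of the 4 genotypes, the library with the lowest Fgfr3 was also the lowest in Fgfr4 and in Fgfrl1: WT 1, Phlpp1 KO 2, Phlpp2 KO 1 and Phlpp1/2 KO 3. Fgf7, Fgf2 and Fgf18 were all highest in 1 library in each knockout, namely Phlpp1 KO 3, Phlpp2 KO 1 and Phlpp1/2 KO 3. In WT, Fgf2 and Fgf7 were highest in WT 1 and Fgf18 in WT 3. In WT, Phlpp2 KO and Phlpp1/2 KO the library lowest in Fgfr3 was thus the one highest in Fgf7 and Fgf2, whereas in Phlpp1 KO these were different libraries.

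The same pattern appears in Pearson correlations of log2 CPM after each genotype's mean was taken off. They are given as a description over 12 libraries, which share 1 preparation scheme, and have no p-value. Among receptors, the value was 0.95 between Fgfr3 and Fgfrl1, 0.93 between Fgfr4 and Fgfrl1 and 0.86 between Fgfr3 and Fgfr4. Among ligands it was 0.88 between Fgf2 and Fgf7 and 0.79 between Fgf7 and Fgf18. Between both sets it was negative, at -0.79 for Fgfr3 and Fgf7 and -0.73 for Fgfr3 and Fgf2. Fgfr1 (0.43 with Fgfr3) and Fgf1 (0.06 with Fgfr3) took little part. The pattern is the one for which the promoter windows of Fgfr3, Fgfrl1 and Fgf7 are printed above.

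**Figure D4:**
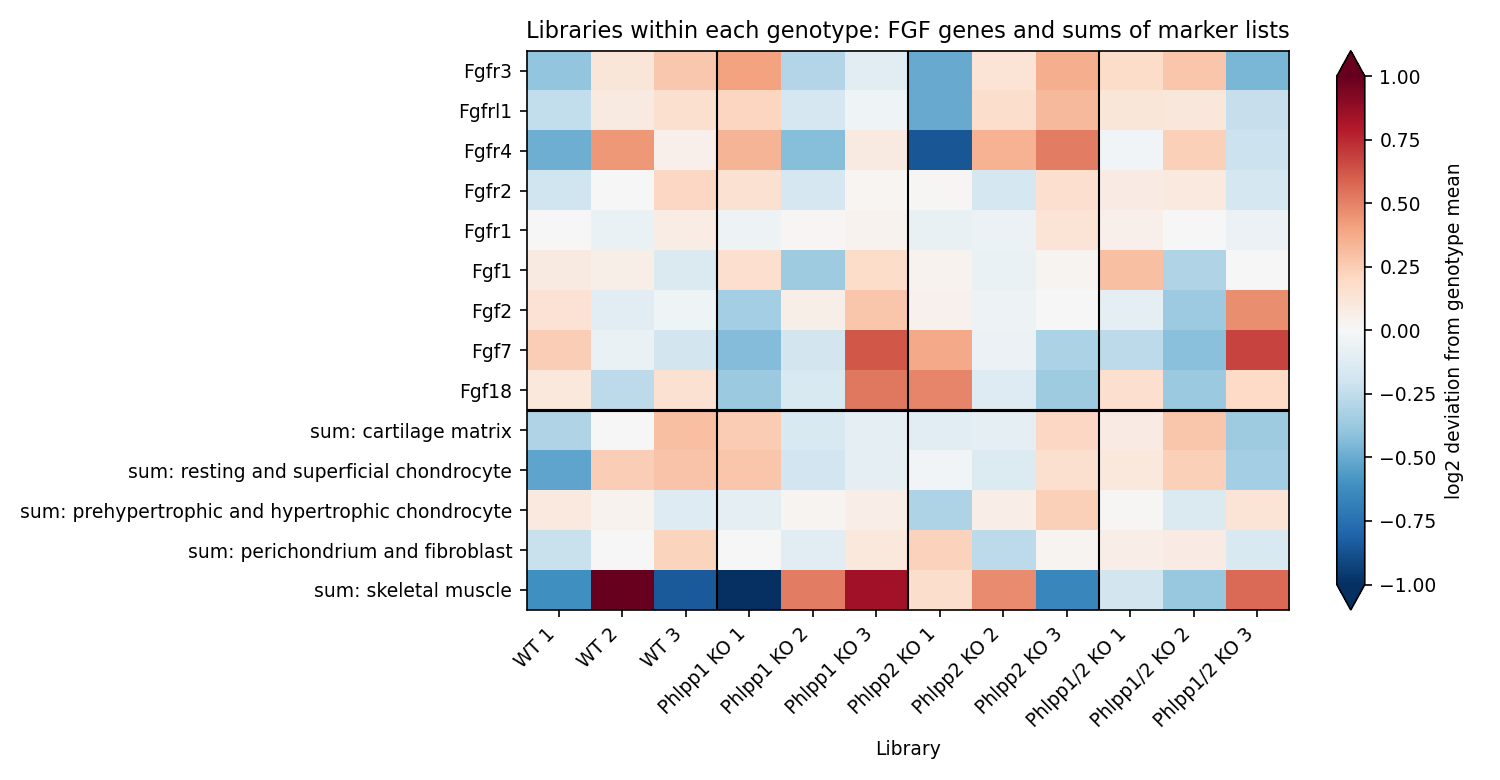
Deviation of log2 CPM from the mean of its genotype (colour scale, red above and blue below) for the 9 tested members and for 5 sums of marker genes (rows) in each of the 12 libraries (columns). In WT 1, Phlpp2 KO 1 and Phlpp1/2 KO 3 the receptors Fgfr3, Fgfrl1 and Fgfr4 lie below 0 while Fgf2 and Fgf7 lie above it.

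The sum of cartilage matrix genes (9 of 10 genes, none at 0 in all libraries) moved with this pattern. The WT libraries had 33849, 41908 and 51286 CPM, and the Phlpp1 KO libraries 50291, 37993 and 39544 CPM. It was 35143, 35504 and 43658 CPM in Phlpp2 KO and 37301, 42762 and 27523 CPM in Phlpp1/2 KO. The library lowest in Fgfr3 was lowest in this sum in every genotype. The within-genotype correlation with the sum was 0.90 for Fgfr2, 0.89 for Fgfr3, 0.73 for Fgfrl1, 0.59 for Fgfr4, -0.79 for Fgf2 and -0.79 for Fgf7. The sum of resting and superficial chondrocyte genes (6 of 6 genes, 242 to 424 CPM) moved in a like manner, with 0.81 for Fgfr3 and -0.66 for Fgf7, while that of prehypertrophic and hypertrophic genes (7 of 7, 4308 to 6993 CPM) gave 0.05 for Fgfr3 and 0.12 for Fgf7. The osteoblast sum (6 of 6 genes, 11.3 to 26.2 CPM) also moved with the pattern, with 0.72 for Fgfr3, -0.70 for Fgf7 and -0.63 for Fgf2. Only 2 of these 6 genes passed the filter for low counts. The log2 deviations of this sum were widest in Phlpp1/2 KO 1 and 3, at 0.43 and -0.60. For the sum of perichondrium and fibroblast genes the values were 0.79 for Fgfr2, 0.23 for Fgfr3, -0.26 for Fgf2 and -0.11 for Fgf7. In bulk samples, fewer cells of a type and less RNA per cell cannot be told apart, and the part of cell composition in these differences was not tested.

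Single genes tracked some members closely. By Pearson correlation of log2 CPM over the 12 libraries, among 9030 genes with a mean of at least 10 CPM, the genes most like Fgfr3 were Col27a1, a fibrillar collagen of cartilage (0.99), Rtl3 (0.98) and the xylose kinase Fam20b (0.97). For Fgfrl1 they were the ubiquitin ligase Wwp2 (0.99), Susd5 (0.98) and Ldlrad3 (0.98). For Fgfr4 they were the glutamate transporter Slc1a1 (0.94), Carmil1 (0.94) and Etv5 (0.93), a transcription factor induced by FGF signalling. For Fgf7 they were the matrix proteoglycan versican, Vcan (0.97), the KIT ligand Kitl (0.96) and Sema3c (0.94). For Fgf2 they were the phosphatase Ptpn12 (0.96), Diaph2 (0.95) and Eif2ak2 (0.93). Fgfr1 was most like the receptor phosphatase Ptprm (0.95), Ephb3 (0.87) and Ltbp3 (0.87), and Fgfr2 most like Galnt18 (0.93), the basement membrane protein Nid2 (0.88) and Pcsk6 (0.87). Being the highest of 9030 values, these are chosen extremes and are given without a test.

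The rest of the pathway was read from 5 lists with 91 genes, of which 77 were tested. The lists were chosen with earlier results of these data known, so their shares beside those of all genes are no test of the lists. In Phlpp1 KO and Phlpp2 KO against WT, 0 of the 77 were called by edgeR and limma-voom, and 7 and 1 by DESeq2. Over all tested genes, edgeR called 0.537% and 0.121%. At an unadjusted p under 0.05 there were 23 and 16 of the 77 (29.9% and 20.8%), beside 20.4% and 13.8% of all tested genes. In Phlpp1/2 KO against WT 2 of 77 were called, both higher, where 0.235% of all tested genes were called. An unadjusted p under 0.05 was reached by 15 of the 77 (19.5%), beside 11.1% of all tested genes. The calls were Egr1 and Fos, transcription factors induced within minutes by ERK signalling.

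Egr1 stood at 53.0, 52.0 and 61.0 CPM in the WT libraries and at 99.1, 113 and 81.6 CPM in Phlpp1/2 KO, a rise of 0.83 on the log2 scale (SE 0.13, adjusted p = 0.0238, edgeR). Fos stood at 13.2, 12.6 and 15.0 CPM in the WT libraries and at 18.9, 23.0 and 18.8 CPM in Phlpp1/2 KO, a rise of 0.57 (SE 0.10, adjusted p = 0.0390, edgeR). Both were above WT in every Phlpp1/2 KO library. Egr1 and Fos were also above WT without overlap in Phlpp1 KO (log2 difference 0.52 and 0.43, adjusted p = 0.0888 and 0.0807) and in Phlpp2 KO (0.43 and 0.36, adjusted p = 0.219 and 0.206), where edgeR called neither. In Phlpp1 KO both were called by DESeq2, with only the groups compared and without Phlpp1/2 KO 3, and Fos also without the filter on low counts. Among other settings, both calls in Phlpp1/2 KO were lost when any 1 WT library, Phlpp1/2 KO 1 or Phlpp1/2 KO 2 was left out, and that of Fos also without any 1 Phlpp1 KO library, with only the groups compared or without both libraries at odds with the sex label. The call of Egr1 was also lost without the filter on low counts. A list of 9 genes that respond to handling of cells, which holds Egr1 and Fos themselves, summed to 329 to 362 CPM in WT and to 398 to 431 in Phlpp1/2 KO, with 356 to 372 in Phlpp1 KO and 349 to 395 in Phlpp2 KO. The mean of this sum was 348 CPM in WT and 415 in Phlpp1/2 KO, and that of Egr1 alone 55.3 and 98.0 CPM. Besides Egr1 and Fos, log2 differences in Phlpp1/2 KO were 0.47 for Fosb, 0.31 for Ier2, 0.105 for Junb, 0.10 for Atf3 and 0.09 for Jun. Hspa1a (-0.58) and Hspa1b (-0.18) were lower, and edgeR called none of these other genes. The part of handling in these values was not tested.

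Feedback inhibitors and ERK targets (24 genes, all tested), such as Sprouty and Dusp genes and Etv factors, showed no common direction in the single knockouts, with 13 higher and 11 lower in Phlpp1 KO and 12 of each in Phlpp2 KO. In Phlpp1/2 KO 15 were higher and 9 lower, with a median of 0.09. An unadjusted p under 0.05 (edgeR) was reached by 8, 5 and 8 of the 24 in Phlpp1 KO, Phlpp2 KO and Phlpp1/2 KO, Egr1 and Fos among them. Of these genes, Spred2 and Snai1 were lower in Phlpp1 KO, Dusp4 in Phlpp2 KO and Snai1 in Phlpp1/2 KO. The others were higher, and apart from Egr1 and Fos in Phlpp1/2 KO edgeR called none of them. The genes with an unadjusted p under 0.05 made up 33.3%, 20.8% and 33.3% of the list, beside 20.4%, 13.8% and 11.1% of all tested genes. Of the 25 signal transduction genes, all tested, none was called against WT, with 12 higher and 13 lower in Phlpp1 KO, 8 and 17 in Phlpp2 KO and 6 and 19 in Phlpp1/2 KO. Rps6ka1, a kinase activated by ERK, had a log2 difference of -0.32 in Phlpp1 KO (SE 0.09, adjusted p = 0.0954, edgeR), -0.36 in Phlpp2 KO (adjusted p = 0.180) and -0.31 in Phlpp1/2 KO (adjusted p = 0.233). Its level was 31.9 to 33.9 CPM in WT, above the 22.9 to 28.9 CPM of all knockout libraries. In Phlpp1/2 KO the other leading gene was Nras, which encodes a small GTPase (0.17, adjusted p = 0.328, edgeR). The list's medians were -0.01, -0.05 and -0.05.

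Of 25 co-receptors and extracellular partners, 23 were tested and none was called against WT. In Phlpp1 KO 7 were higher and 16 lower (median -0.13), in Phlpp2 KO 9 and 14 (median -0.05), and in Phlpp1/2 KO 4 and 19 (median -0.11). The leading genes were Ext1, which builds heparan sulfate chains (-0.19, adjusted p = 0.118), and the adhesion protein Ncam1 (-0.27, adjusted p = 0.125) in Phlpp1 KO. In Phlpp2 KO they were the proteoglycan syndecan-1, Sdc1 (-0.26, adjusted p = 0.219), and the heparan sulfate sulfotransferase Hs6st2 (0.32, adjusted p = 0.237). In Phlpp1/2 KO they were the glypicans Gpc1 (-0.22, adjusted p = 0.257) and Gpc3 (0.42, adjusted p = 0.283), all by edgeR.

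Most other FGF genes were hardly detected. Of 13 further secreted ligands, 11 did not pass the filter on low counts. The remaining ones were Fgf10, a mesenchymal ligand (1.5 to 4.70 CPM), and Fgf21, a metabolic hormone (0.0993 to 1.08 CPM). Their log2 differences from WT were -0.14, 0.05 and 0.02 for Fgf10 and 0.47, -0.41 and 0.27 for Fgf21 in Phlpp1 KO, Phlpp2 KO and Phlpp1/2 KO, with adjusted p-values of at least 0.724 (edgeR). Fgf13, 1 of 4 FGF homologous factors that stay inside the cell, was the most abundant FGF gene outside the members at 17.5 to 31.4 CPM. Its log2 difference in Phlpp2 KO was 0.31 (adjusted p = 0.356, edgeR), with 31.4 CPM in Phlpp2 KO 1 and 21.6 and 21.2 CPM in the other libraries of that group. Fgf12 (0.0905 to 0.548 CPM) had log2 differences of 1.06, 1.08 and 1.03 and Fgf11 (0.266 to 0.541 CPM) of -0.37, -0.43 and -0.51, none of them called.

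**Figure D5:**
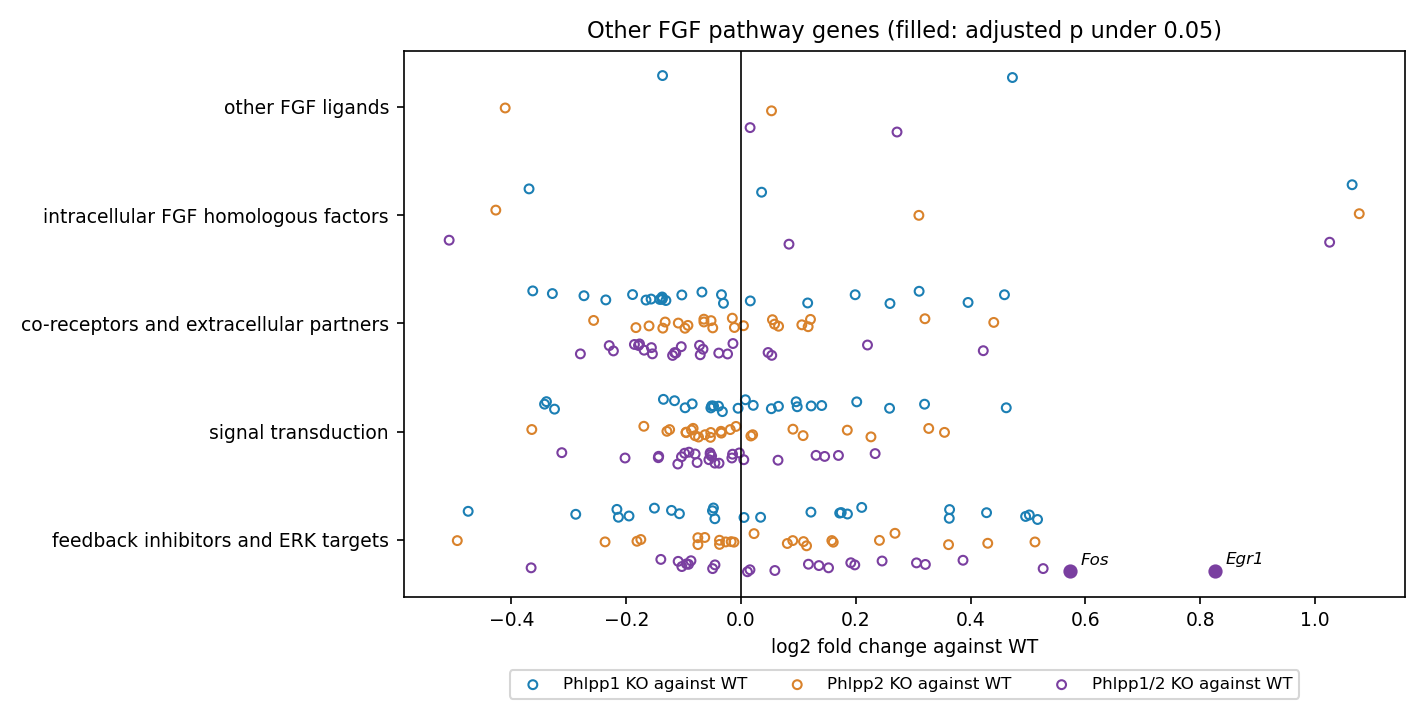
Log2 fold change of the 77 tested pathway genes, by list (rows), in each knockout against WT (colours). Filled points passed an adjusted p under 0.05, and these are Egr1 (0.83) and Fos (0.57) in Phlpp1/2 KO.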

How the data were processed

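Per the labels, total RNA of 12 chondrocyte samples was made into libraries with the NEBNext Ultra II RNA kit. The authors deposited raw counts per gene, without normalization. Per the submitters' processing notes, bcl2fastq 2.17, STAR 2.5.2b, featureCounts of Subread 1.5.2 and the mm10 build were used. The strand setting and annotation release are not known here. Exon lengths and positions came from GENCODE vM21.

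Counts were analysed in R 4.3.3 with edgeR 4.0.16: filterByExpr kept 16565 of 49315 genes, of which 174 in the table have no symbol, TMM factors scaled the libraries, and the 12 libraries entered 1 robust quasi-likelihood fit by genotype with 8 residual degrees of freedom. Benjamini-Hochberg adjustment covered every tested gene, and an adjusted p under 0.05 was called. BCV is edgeR's estimate per gene, and SE is the log2 fold change over the square root of F. Library totals of 21706337 to 33115345 counts set the precision. The fit was tested on simulated counts. Alternatives were DESeq2 1.42.0, limma-voom 3.58.1, RLE factors, no filter, only the groups compared, a replicate block and left-out libraries. Near-identical copies (95% identity or more over a stretch of 150 bases or more, among reference transcripts) were found only at the overlaps between genes, such as those of Fgf2 with Nudt6 and Fgfr2 with Ctbp2.

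All 10 members are named. From each pathway list, called genes are named, and otherwise the 2 tested genes with the smallest adjusted p. Feedback genes that were lower at an unadjusted p under 0.05 are named as well. Some results under this rule are not reported here. Likeness used the 3 highest correlations for members with a mean of at least 5 CPM, without predicted genes, Riken clones and pseudogenes. The members and lists were chosen with earlier results of these data known.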

Additional observations from a re-analysis of the deposited data

How the results depend on the processing

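Limits: 3 samples per genotype leave intervals that reach 1.42 on the log2 scale for Fgf7, and Fgf1, Fgf18 and Fgfr4 rest on at most 280 counts per library. Counts of called members stayed at 0 under every alternative except without Phlpp1/2 KO 3, where Fgf2 was called in Phlpp1/2 KO against Phlpp2 KO and in the interaction, so that leaving out 1 library gave 0 to 1 member there. The 160 alternative values of members' CPM moved by less than 1 SD. Of the members' alternative values of CPM per kilobase, 22 counted as moved and 18 as the same.

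Pathway genes called in Phlpp1 KO against WT (0) numbered 7 with DESeq2, 3 with no filter, 1 with the replicate block, 11 with only the groups compared and 0 to 6 with 1 library left out, with 6 without Phlpp1/2 KO 3, 3 without Phlpp2 KO 1 and 1 without Phlpp2 KO 2. In Phlpp2 KO (0) DESeq2 and no filter gave 1 each. In Phlpp1/2 KO (2) no filter, only the groups compared and leaving out both libraries at odds with the sex label gave 1 each, the replicate block 0, and 1 library left out 0 to 2.

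Log2 differences near 0 changed sign. Without both libraries at odds with the sex label, Fgfr1 in Phlpp1 KO was 0.0046 and Fgf21 -0.26. With limma-voom, Fgf18 in Phlpp1 KO was -0.050 and Fgf10 in Phlpp2 KO -0.064. With 1 library left out, the ranges that crossed 0 were, in Phlpp1 KO, -0.098 to 0.089 for Fgfr2, -0.18 to 0.39 for Fgf7, -0.30 to 0.19 for Fgf18 and -0.28 to 0.83 for Fgf21. In Phlpp2 KO they were -0.12 to 0.071 for Fgfr2, -0.39 to 0.0076 for Fgfr3, -0.34 to 0.033 for Fgfrl1, -0.37 to 0.38 for Fgf10 and -0.99 to 0.064 for Fgf21. In Phlpp1/2 KO they were -0.13 to 0.059 for Fgfr2, -0.18 to 0.43 for Fgf7, -0.28 to 0.016 for Fgf18, -0.16 to 0.14 for Fgf10 and -0.48 to 0.55 for Fgf21, and in the interaction -0.22 to 0.11 for Fgf1. The cause was not tested.

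Over all genes, 89 were called in Phlpp1 KO against WT, 995 with DESeq2, 461 with no filter, 245 with the replicate block, 1163 with only the groups compared, 18 without both libraries at odds with the sex label and 16 to 647 with 1 left out. For Phlpp2 KO the count was 20, against 318 with DESeq2, 110 with no filter, 84 with the block and 9 to 159 with 1 left out. For Phlpp1/2 KO it was 39, against 164, 102, 29 and 18 to 57. For the interaction it was 8, against 641, 183, 308 and 5 to 1196. For any difference it was 60, against 750, 431, 70 and 29 to 571. For Phlpp1/2 KO against Phlpp1 KO it was 2, against 20, 14, 2 and 2 to 4, for Phlpp1/2 KO against Phlpp2 KO 12, against 44, 32, 10 and 4 to 132, and for Phlpp1 KO against Phlpp2 KO 25, against 179, 119, 15 and 8 to 207. Without both libraries at odds with the sex label the last 5 were 4, 25, 2, 3 and 11. With only the groups compared, Phlpp1/2 KO gave 1 call against Phlpp1 KO and 3 against Phlpp2 KO.

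Same-numbered libraries deviated together no more than others (correlation -0.16 to 0.30, median -0.046, 18 pairs, against -0.28 to 0.22 for 36 other pairs), and 5 of 12 libraries correlated best with their own number. These correlations showed no pairing by number, but they cannot show whether same-numbered samples were prepared together. Counts over all genes did change with the replicate block, as given above. The replicate block changed no member's call.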
